A study of Homo sapiens with 9 samples.

Results

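The genes described here encode the enzymes that build cholesterol and fatty acids, with the proteins that control them. They were taken from a list of 36 gene symbols, all 36 of which were found in a counts table of 11350 genes. By role they comprised 8 enzymes of the mevalonate pathway, 11 enzymes that turn its product into cholesterol, 11 enzymes of fatty acid synthesis and 6 regulators. RNA was sequenced from HCT116 cells, a human colorectal carcinoma line, in 3 forms with 3 libraries each. HUWE1-P cells were the parental, unedited cells. HUWE1-WT and HUWE1-CS cells carried a repair template in the endogenous HUWE1 gene, which encodes a HECT-type ubiquitin ligase. The template restored the catalytic cysteine in HUWE1-WT cells and put serine in its place in HUWE1-CS cells. In both edited lines it also brought a self-cleaving peptide site and a blasticidin resistance gene, and single cell clones were grown after puromycin and blasticidin selection. Selection and cloning are described for the edited cells only, and how HUWE1-P cells were handled beside them was not given in the sources used here. No treatment of any line before RNA was harvested is described in the sources used here. The study's methods describe its replicates as biological and taken from distinct samples. Whether the 3 libraries of an edited line came from 1 clone or several was not given in the sources used here, so the p-values measure the spread between these libraries and may not cover that between clones.

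Cholesterol and fatty acids are both built from cytosolic acetyl-CoA. The enzymes of both routes are switched on together by the membrane-bound transcription factors SREBF1 and SREBF2, of which SREBF2 acts mainly on sterol genes and SREBF1 mainly on fatty acid genes. When sterols are scarce, the escort protein SCAP carries these factors from the endoplasmic reticulum to the Golgi, where proteases release the part that enters the nucleus. When sterols are plentiful, INSIG1 and INSIG2 hold SCAP back. INSIG1 is itself a target of these factors, and their binding to sterol regulatory elements is aided by NF-Y at CCAAT boxes and by SP1 at GC boxes nearby.

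Library totals lay between 1610984 and 2060349 counts, and 3 counts corresponded to 1.45 to 1.86 CPM (counts scaled to library size and normalised by TMM). The lowest count of any of the 36 genes in any library was 9. HUWE1 itself stood at 522 to 561 CPM in HUWE1-P, 453 to 498 CPM in HUWE1-WT and 323 to 345 CPM in HUWE1-CS libraries, without overlap between the lines, but its level does not report on the edited codon. Of 7 epithelial markers, all 7 were analysed, and in HUWE1-CS cells EPCAM, CDH1 and CLDN7 were called higher and KRT8 and KRT18 lower than in either control line. KRT19 and CLDN4 were not called. That is 71.4% called, beside 17.0% of all genes against HUWE1-P and 15.5% against HUWE1-WT cells. The log2 fold changes of the 7 ran from -0.32 to 0.53 and from -0.37 to 0.54. CDX2 was the 1 marker analysed of 5 intestinal ones. Its log2 fold change was 0.44 against HUWE1-P and 0.40 against HUWE1-WT cells, called in neither, with an unadjusted edgeR p under 0.05 in both. Its HUWE1-CS libraries lay above all 6 controls, as they did for 12.9% of all genes. COL1A1 was the 1 analysed of 6 markers of other cell types. It was called lower in HUWE1-CS cells (log2 fold change -0.96 against HUWE1-P and -0.88 against HUWE1-WT). The part of these shifts in the results below was not tested. In bulk RNA, fewer cells of a kind and less RNA per cell cannot be told apart.

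Promoter sequences of 5 of these genes, each called lower in HUWE1-CS cells, are printed first. The genes were chosen after their values were seen, and a part of their promoters in the fall was not tested. Each stretch lies upstream of a RefSeq start site, is read on the gene's strand, stops where an annotated exon begins, and shows in capitals every CCAAT box (CCAAT or, on the other strand, ATTGG) and GC box (GGGCGG or CCGCCC).
INSIG1, chr7:155089338-155089485 of GRCh37, plus strand: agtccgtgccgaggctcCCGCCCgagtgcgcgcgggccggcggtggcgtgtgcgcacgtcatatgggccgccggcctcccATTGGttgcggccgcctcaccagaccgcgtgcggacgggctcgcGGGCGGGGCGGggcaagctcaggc
STARD4, chr5:110848289-110848483, minus strand: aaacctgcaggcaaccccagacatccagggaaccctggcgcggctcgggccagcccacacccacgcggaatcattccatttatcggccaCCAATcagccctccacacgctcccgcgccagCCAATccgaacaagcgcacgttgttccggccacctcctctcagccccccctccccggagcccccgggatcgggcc
HMGCS1, chr5:43313615-43313764, minus strand: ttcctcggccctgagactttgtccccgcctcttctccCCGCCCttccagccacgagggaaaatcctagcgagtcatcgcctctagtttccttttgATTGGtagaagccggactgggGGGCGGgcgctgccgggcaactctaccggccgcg
DHCR7, chr11:71159482-71159607, minus strand: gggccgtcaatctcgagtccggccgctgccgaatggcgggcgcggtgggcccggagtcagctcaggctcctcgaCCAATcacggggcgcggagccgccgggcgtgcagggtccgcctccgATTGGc
SCD, chr10:102106740-102106989, plus strand: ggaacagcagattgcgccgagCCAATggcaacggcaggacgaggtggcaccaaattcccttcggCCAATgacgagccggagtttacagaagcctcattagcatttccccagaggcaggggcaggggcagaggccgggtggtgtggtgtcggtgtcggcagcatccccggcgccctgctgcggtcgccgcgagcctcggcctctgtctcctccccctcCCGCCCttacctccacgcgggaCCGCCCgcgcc

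Most of these genes were called lower in HUWE1-CS cells, and 1 was called higher. Against HUWE1-P cells, 22 of 36 genes were called lower at an adjusted p of at most 0.01 (edgeR's quasi-likelihood test, adjusted over all genes), and TM7SF2 was called higher. Across all 11350 genes, 8.58% were called lower and 8.46% higher in that comparison, 17.0% in either direction. Against HUWE1-WT cells, again 22 genes were called lower and TM7SF2 higher, beside 8.08% lower and 7.42% higher of all genes and 15.5% in either direction. The log2 fold change was below 0 for 31 of the 36 genes in each comparison, called or not, and the median was -0.48 against HUWE1-P and -0.50 against HUWE1-WT cells, where that of all genes was -0.007 and -0.001. The 3 HUWE1-CS libraries lay below all 6 control libraries for 23 of the 36 genes, as they did for 13.4% of all genes, and above all 6 for TM7SF2 alone, as they did for 12.9% of all genes. Both comparisons use the same HUWE1-CS libraries and are not independent of each other.

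**Figure D1:**
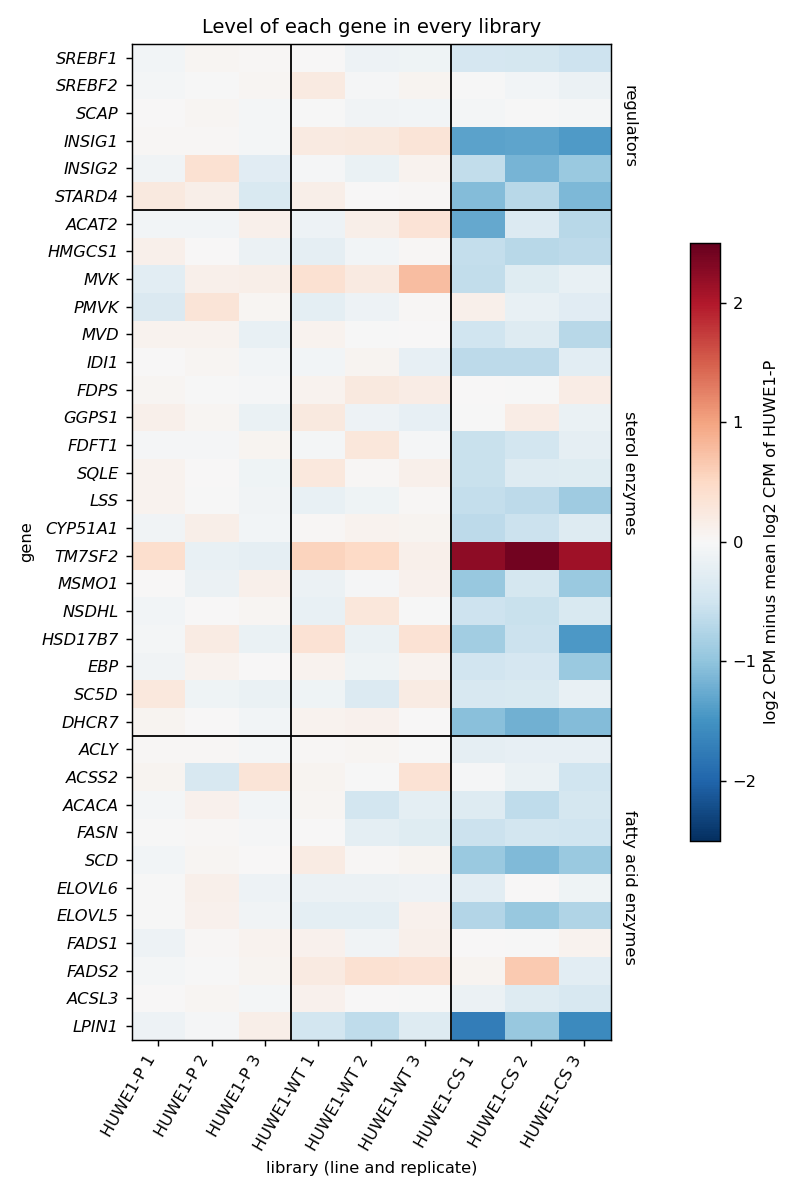
Level of each of the 36 genes (rows, by role) in each of the 9 libraries (columns), as log2 CPM minus the mean log2 CPM of the 3 HUWE1-P libraries (colour scale). The HUWE1-CS columns are blue for most genes of every role, TM7SF2 is dark red in all 3 of them, and SREBF2, SCAP, FDPS, GGPS1 and FADS1 stay pale.

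Among the regulators, both INSIG genes, the sterol transfer gene STARD4 and SREBF1 were lower in HUWE1-CS cells, while SREBF2 and SCAP were not called. INSIG1 (Entrez 3638, chr7:155089486-155101945 on GRCh37), whose protein retains SCAP in the endoplasmic reticulum, stood at 82.5, 82.5 and 78.0 CPM in HUWE1-P libraries, at 94.4, 96.0 and 100.6 CPM in HUWE1-WT libraries and at 32.0, 32.3 and 30.2 CPM in HUWE1-CS libraries. The HUWE1-CS libraries were closely spaced and far below all 6 controls. INSIG1 fell 2.56-fold against HUWE1-P cells (log2 fold change -1.36 ± 0.132 SE, adjusted p = 5.79e-15) and 3.07-fold against HUWE1-WT cells (-1.62 ± 0.128 SE, adjusted p = 1.76e-19). Its paralogue INSIG2, which is regulated apart from INSIG1, had 15.5, 21.3 and 13.5 CPM in HUWE1-P, 16.2, 14.7 and 17.4 CPM in HUWE1-WT and 10.7, 7.37 and 8.71 CPM in HUWE1-CS libraries. These are among the lowest levels of the group, and the HUWE1-CS libraries did not overlap the controls. INSIG2 was called lower against HUWE1-P cells (-0.90 ± 0.268 SE, adjusted p = 0.0072), but against HUWE1-WT cells a difference of similar size missed the threshold (-0.85 ± 0.272 SE, adjusted p = 0.0139).

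STARD4 encodes a soluble protein that moves cholesterol between membranes. It was measured at 28.6, 26.4 and 18.3 CPM in HUWE1-P, 26.6, 24.0 and 24.4 CPM in HUWE1-WT and 11.3, 14.8 and 11.03 CPM in HUWE1-CS libraries. The third HUWE1-P library was lower than the other control libraries but still above every HUWE1-CS library. STARD4 fell 1.94-fold against HUWE1-P (adjusted p = 0.000559) and 2.02-fold against HUWE1-WT cells (adjusted p = 0.000268). Without the first HUWE1-P library the call against HUWE1-P cells was lost (adjusted p = 0.0102).

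Of the genes of the transcription factors, SREBF1 was called lower in both HUWE1-CS comparisons and SREBF2 in neither. SREBF1 (Entrez 6720) had 315, 338 and 333 CPM in HUWE1-P, 329, 303 and 306 CPM in HUWE1-WT and 244, 243 and 229 CPM in HUWE1-CS libraries. Its HUWE1-CS libraries did not reach the controls, and it fell by 27.4% against HUWE1-P (-0.46 ± 0.0695 SE, adjusted p = 6.4e-08) and by 23.6% against HUWE1-WT cells (-0.39 ± 0.0702 SE, adjusted p = 6.38e-06). The counts do not separate its isoforms, and 120 bases of its transcript overlap RAI1 on the other strand, whose log2 fold change was -0.07 against HUWE1-P and 0.18 against HUWE1-WT cells, neither of them called. SREBF2 (Entrez 6721) had 194, 198 and 206 CPM in HUWE1-P, 234, 194 and 209 CPM in HUWE1-WT and 197, 189 and 180 CPM in HUWE1-CS libraries. These ranges overlapped. The log2 fold change of SREBF2 was -0.08 against HUWE1-P (95% interval -0.24 to 0.07, from the standard error) and -0.17 against HUWE1-WT cells (-0.32 to -0.015), which missed the threshold after adjustment (adjusted p = 0.107). SCAP, the escort of both factors, had 100.6, 103.8 and 96.8 CPM in HUWE1-P, 99.7, 94.9 and 95.4 CPM in HUWE1-WT and 97.3, 99.2 and 97.0 CPM in HUWE1-CS libraries. The lines overlapped, and the 95% intervals of its log2 fold change ran from -0.23 to 0.16 against HUWE1-P and from -0.18 to 0.21 against HUWE1-WT cells. No test of the difference between SREBF1 and SREBF2 was made.

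**Figure D2:**
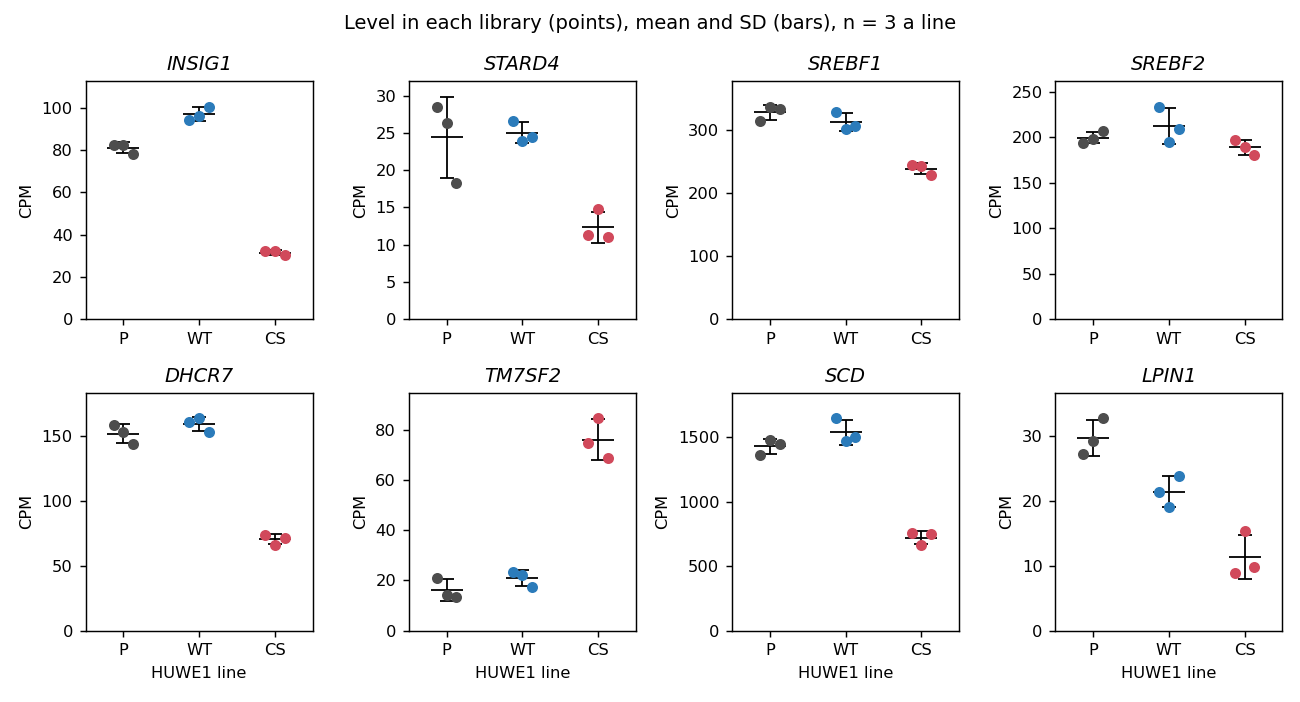
TMM-normalised CPM of 8 genes in each library (points, 3 a line) with the mean (long bar) and SD (capped bars) of each line, on linear axes from 0. HUWE1-CS libraries lie below all controls for INSIG1, STARD4, SREBF1, DHCR7, SCD and LPIN1 and above them for TM7SF2, while SREBF2 overlaps between the lines.

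In the mevalonate pathway, ACAT2, HMGCS1, MVD and IDI1 were lower in both comparisons and MVK in 1, while the kinase PMVK and the prenyl transferases FDPS and GGPS1 were not called. Of the 8 genes, 4 were called lower against HUWE1-P and 5 against HUWE1-WT cells, with median log2 fold changes of -0.43 and -0.49. HMGCS1, the synthase that makes HMG-CoA, was at 116, 107 and 96.4 CPM in HUWE1-P, 91.0, 102.0 and 108 CPM in HUWE1-WT and 70.0, 65.8 and 67.3 CPM in HUWE1-CS libraries. Every HUWE1-CS library was lower than every control, and HMGCS1 fell 1.56-fold (-0.65 ± 0.108 SE, adjusted p = 9.61e-07) and 1.48-fold (-0.57 ± 0.11 SE, adjusted p = 2.38e-05) against HUWE1-P and HUWE1-WT cells. An antisense transcript annotated over 46.7% of its length cannot be told apart from it, since the use of strand in the counting was not given in the sources used here.

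ACAT2, the thiolase that condenses acetyl-CoA, fell by 0.73 and 0.85 on the log2 scale against HUWE1-P and HUWE1-WT cells. Its transcript shares 454 bases with TCP1 on the opposite strand, which changed less (-0.18 and -0.19) and was not called, and 98 bases with SOD2, which gave 0.30 and 0.52 and was called higher against HUWE1-WT cells. MVD, the decarboxylase, fell by 0.49 and 0.52. IDI1, the isomerase of isopentenyl diphosphate, fell by 0.51 and 0.45. The mevalonate kinase gene MVK was called lower only against HUWE1-WT cells (-0.83 ± 0.204 SE, adjusted p = 0.00108) and not against HUWE1-P cells (-0.38 ± 0.216 SE, adjusted p = 0.204). Its HUWE1-WT libraries were the highest, at 27.2, 24.5 and 36.0 CPM, beside 17.4, 23.0 and 23.1 CPM in HUWE1-P and 13.6, 17.0 and 18.6 CPM in HUWE1-CS libraries, and the last line overlapped the parental one.

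Of the remaining mevalonate genes, none was called. PMVK, the phosphomevalonate kinase, gave log2 fold changes of -0.14 and 0.01. FDPS, which makes farnesyl diphosphate, stood at 121 ± 3.88 CPM in HUWE1-P, 137 ± 8.03 CPM in HUWE1-WT and 127 ± 9.17 CPM in HUWE1-CS cells (SD, n = 3), with a 95% interval of the log2 fold change from -0.11 to 0.25 against HUWE1-P cells. FDPS has 8 annotated pseudogene copies, found by name, among which the counting could have split its reads. An antisense transcript is also annotated over 41.4% of the length of FDPS. Pseudogene copies of this kind are annotated for 6 of the 36 genes. The others are IDI1 and CYP51A1 (3 each), HSD17B7 (2), and SCD and ACSL3 (1 each). GGPS1, which makes geranylgeranyl diphosphate for protein prenylation, gave 0.02 and 0.03, with a wide 95% interval of -0.36 to 0.40 against HUWE1-P cells.

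Past the branch point to squalene, 7 of 11 genes were called lower against HUWE1-P and 8 against HUWE1-WT cells, and TM7SF2 was called higher in both. The steepest fall was in DHCR7 (Entrez 1717, chr11:71139239-71163914), the reductase of the last step to cholesterol. It was read at 159, 153 and 144 CPM in HUWE1-P, 161, 164 and 154 CPM in HUWE1-WT and 73.6, 66.3 and 72.0 CPM in HUWE1-CS libraries. All HUWE1-CS libraries were thus far under the lowest control. DHCR7 fell 2.15-fold (-1.10 ± 0.0975 SE, adjusted p = 5.04e-17) and 2.26-fold (-1.18 ± 0.0971 SE, adjusted p = 1.52e-18) against HUWE1-P and HUWE1-WT cells.

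MSMO1, a methyl sterol oxidase, had 65.2, 58.4 and 70.3 CPM in HUWE1-P, 57.9, 63.3 and 69.2 CPM in HUWE1-WT and 33.2, 47.6 and 33.7 CPM in HUWE1-CS libraries. The second HUWE1-CS library was nearest to the controls without reaching them, and MSMO1 fell 1.69-fold and 1.66-fold (adjusted p = 6.9e-06 and 2.28e-05). LSS, the cyclase that forms lanosterol, had 79.4, 74.7 and 70.8 CPM in HUWE1-P, 66.0, 69.3 and 76.2 CPM in HUWE1-WT and 49.2, 47.6 and 40.6 CPM in HUWE1-CS libraries. It did not overlap either and fell 1.63-fold and 1.54-fold (adjusted p = 4.59e-06 and 8.45e-05).

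CYP51A1, the demethylase of lanosterol, had 132, 156 and 134 CPM in HUWE1-P, 143, 148 and 147 CPM in HUWE1-WT and 89.0, 96.4 and 112 CPM in HUWE1-CS libraries. EBP, a sterol isomerase, had 78.8, 88.7 and 83.8 CPM in HUWE1-P, 89.2, 78.0 and 88.4 CPM in HUWE1-WT and 59.9, 63.0 and 44.1 CPM in HUWE1-CS libraries. For both genes all HUWE1-CS libraries were below all controls. CYP51A1 fell by 29.5% and 32.3% (adjusted p = 1.25e-05 and 1.35e-06) and EBP by 33.6% and 34.5% (adjusted p = 5.57e-05 and 3.67e-05) against HUWE1-P and HUWE1-WT cells. Read-through transcripts with neighbouring genes are annotated over both.

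FDFT1, the squalene synthase, fell by 0.41 and 0.48 on the log2 scale, and SQLE, the epoxidase that follows it, by 0.39 and 0.54. HSD17B7, a ketosteroid reductase of this route, was at 13.7, 16.3 and 12.5 CPM in HUWE1-P, 17.96, 12.5 and 18.02 CPM in HUWE1-WT and 7.71, 9.64 and 5.22 CPM in HUWE1-CS libraries. It was called lower against HUWE1-WT cells (-1.09 ± 0.285 SE, adjusted p = 0.00215) and missed the threshold against HUWE1-P cells (-0.90 ± 0.291 SE, adjusted p = 0.0147), at counts low enough for a wide error. NSDHL, a sterol dehydrogenase, was not called (adjusted p = 0.0239 and 0.0143) although its 3 HUWE1-CS libraries, between 23.8 and 26.7 CPM, were below the 6 controls. SC5D, a sterol desaturase, was not called (-0.31 and -0.25) and overlapped.

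TM7SF2 (Entrez 7108, chr11:64879317-64883856) was the exception in all 3 HUWE1-CS libraries. It encodes a sterol reductase that acts on the product of CYP51A1, an activity that the lamin B receptor LBR shares. TM7SF2 stood at 21.1, 14.03 and 13.5 CPM in HUWE1-P, 23.2, 22.4 and 17.4 CPM in HUWE1-WT and 74.8, 84.5 and 68.5 CPM in HUWE1-CS libraries. The lowest HUWE1-CS library was far above the highest control. It rose 4.75-fold against HUWE1-P (log2 fold change 2.25 ± 0.164 SE, adjusted p = 9.52e-22) and 3.61-fold against HUWE1-WT cells (1.85 ± 0.155 SE, adjusted p = 3.74e-18), the change furthest from 0 among the 36 genes in either comparison. LBR, picked after its values were seen, went from 213 ± 10.4 CPM in HUWE1-P and 229 ± 4.19 CPM in HUWE1-WT to 161 ± 8.32 CPM in HUWE1-CS cells (SD, n = 3). It was called lower in both comparisons (-0.40, adjusted p = 2.26e-05, and -0.51, adjusted p = 1.32e-07). The 6 tested genes that lie next to TM7SF2 on the chromosome, also picked afterwards, gave log2 fold changes between 0.06 and 0.33 against HUWE1-P and between 0.08 and 0.54 against HUWE1-WT cells. Of these only FAU was called in either comparison, and in both. VPS51, whose annotated end lies just past the start of TM7SF2, gave 0.14 and 0.08 and was not called.

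**Figure D3:**
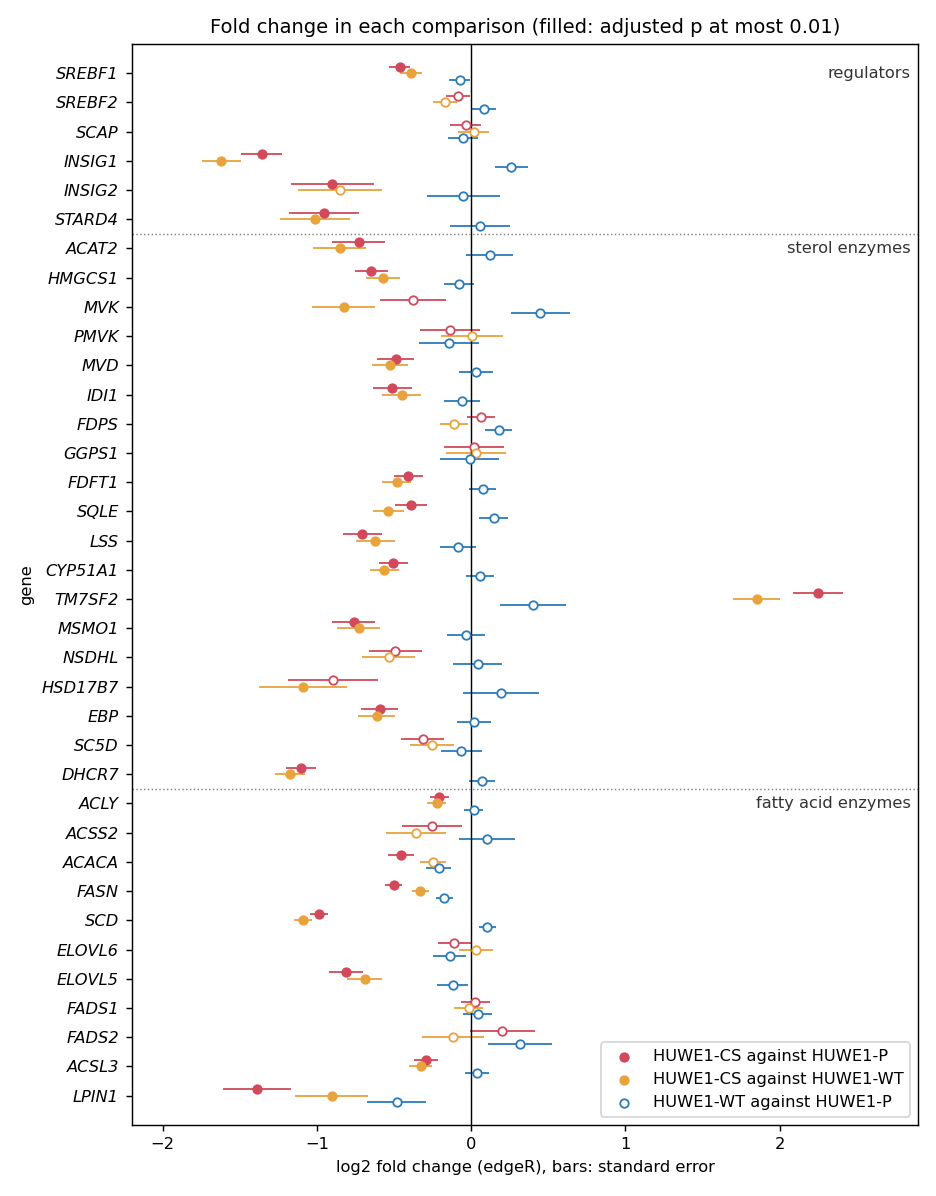
Log2 fold change of each gene in the 3 comparisons (points), with the standard error (bars), by role. Filled points passed an adjusted p of 0.01. The HUWE1-CS comparisons lie left of 0 for most genes and at 2.25 and 1.85 for TM7SF2, and no point of HUWE1-WT against HUWE1-P is filled.

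In fatty acid synthesis, the desaturase SCD, the phosphatidate phosphatase LPIN1 and the elongase ELOVL5 showed the largest falls. The synthase FASN fell less, and the desaturases FADS1 and FADS2 and the elongase ELOVL6 were not called. Of the 11 genes, 7 were called lower against HUWE1-P and 6 against HUWE1-WT cells, none higher, with median log2 fold changes of -0.29 and -0.33. SCD (Entrez 6319, chr10:102106990-102124583), which places the double bond in newly made saturated fatty acids, was among the most abundant transcripts of the group. It had 1364, 1474 and 1446 CPM in HUWE1-P, 1646, 1466 and 1498 CPM in HUWE1-WT and 755, 664 and 747 CPM in HUWE1-CS libraries. The HUWE1-CS libraries lay far below the controls at this depth of reads. SCD fell 1.98-fold against HUWE1-P (-0.98 ± 0.0583 SE, adjusted p = 1.19e-27) and 2.13-fold against HUWE1-WT cells (-1.09 ± 0.0583 SE, adjusted p = 1.25e-30).

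FASN, the multifunctional synthase of palmitate, had 2005, 2040 and 1980 CPM in HUWE1-P, 2017, 1687 and 1637 CPM in HUWE1-WT and 1385, 1454 and 1415 CPM in HUWE1-CS libraries. The HUWE1-WT libraries were spread between the parental level and a lower one, and all were above HUWE1-CS. FASN fell by 29.4% against HUWE1-P (adjusted p = 2.59e-12) and by 20.3% against HUWE1-WT cells (adjusted p = 2.01e-06). ELOVL5, which lengthens polyunsaturated fatty acids, had 108, 117 and 102 CPM in HUWE1-P, 91.5, 91.6 and 118 CPM in HUWE1-WT and 65.9, 56.1 and 64.5 CPM in HUWE1-CS libraries. It showed no overlap and fell 1.75-fold and 1.61-fold (adjusted p = 5.04e-09 and 8.22e-07).

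LPIN1 (Entrez 23175) converts phosphatidate to diacylglycerol on the way to triglycerides. It had 27.3, 29.2 and 32.8 CPM in HUWE1-P, 21.4, 19.1 and 23.8 CPM in HUWE1-WT and 8.90, 15.3 and 9.87 CPM in HUWE1-CS libraries. The 3 lines formed separate ranges, with HUWE1-WT in between. LPIN1 fell 2.62-fold against HUWE1-P (-1.39 ± 0.218 SE, adjusted p = 2.12e-07) and 1.87-fold against HUWE1-WT cells (-0.90 ± 0.236 SE, adjusted p = 0.00205).

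ACLY, which supplies cytosolic acetyl-CoA from citrate, changed little but evenly. Its values were 542, 539 and 509 CPM in HUWE1-P, 538, 548 and 523 CPM in HUWE1-WT and 456, 461 and 460.4 CPM in HUWE1-CS libraries. All HUWE1-CS libraries were under the controls, and ACLY fell by 13.3% and 14.4% (adjusted p = 0.0083 and 0.00403). ACSL3, which activates fatty acids with coenzyme A, had 220.3, 226 and 211 CPM in HUWE1-P, 235, 222 and 217 CPM in HUWE1-WT and 198, 174 and 166 CPM in HUWE1-CS libraries. It did not overlap and fell by 18.2% and 20.3% (adjusted p = 0.00259 and 0.000633). ACACA, the carboxylase that makes malonyl-CoA, fell by 0.46 on the log2 scale against HUWE1-P cells (adjusted p = 8.9e-06) and was not called against HUWE1-WT cells (-0.25, adjusted p = 0.0263), whose libraries ranged from 167 to 237 CPM and overlapped HUWE1-CS.

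ACSS2, which makes acetyl-CoA from acetate, gave -0.26 and -0.36 and was not called. ELOVL6, the elongase of palmitate, gave -0.11 and 0.03. FADS1 stood at 114 ± 9.14, 119 ± 9.36 and 117 ± 4.17 CPM in parental, HUWE1-WT and HUWE1-CS cells (SD, n = 3), with a 95% interval of the log2 fold change from -0.16 to 0.21 against HUWE1-P and -0.20 to 0.17 against HUWE1-WT cells. FADS2, its neighbour, gave 0.20 and -0.12 with HUWE1-CS libraries spread from 15.7 to 29.5 CPM. The genes share exon sequence on opposite strands (142 and 148 bases).

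Between HUWE1-WT and HUWE1-P cells none of the 36 genes was called by edgeR, where 0.0617% of all genes were. An unadjusted p under 0.05 was found for 6 of the 36, or 16.7%, beside 5.54% of all genes. DESeq2 also called none and gave 1 gene an unadjusted p under 0.05, and limma-voom called none and gave 6. The 6 genes in edgeR were FASN (-0.17), ACACA (-0.21), LPIN1 (-0.48), INSIG1 (0.26), MVK (0.45) and FDPS (0.18), with adjusted p between 0.489 and 0.901. Without the first HUWE1-WT library, the highest of that line for FASN, FASN was called lower in HUWE1-WT than in HUWE1-P cells (-0.27, adjusted p = 0.00219). The medians were 0.04 for the sterol enzymes and 0.02 for the fatty acid enzymes.

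The sterol and fatty acid branches were also compared within each library, as the mean over genes of log2 CPM relative to the HUWE1-P mean. In HUWE1-CS libraries 1 to 3, the 19 sterol enzymes averaged -0.42, -0.29 and -0.39 and the 11 fatty acid enzymes -0.44, -0.38 and -0.51. All of these lay below the control libraries, which ran from -0.06 to 0.10 for sterol and from -0.13 to 0.02 for fatty acid enzymes. The 6 regulators averaged -0.60, -0.63 and -0.71, beside -0.13 to 0.09 in controls. The difference of sterol minus fatty acid enzymes was 0.02, 0.09 and 0.12 in HUWE1-CS libraries and ranged from -0.08 to 0.17 in the controls, so these ranges overlapped. The sign of the difference in HUWE1-CS libraries rested on TM7SF2. Without it, a choice made after its value was seen, the sterol mean was -0.57, -0.44 and -0.53 and the difference turned to -0.13, -0.06 and -0.02 in HUWE1-CS libraries, beside -0.06 to 0.145 in the controls, and the first HUWE1-CS library lay below the control range. Summed over genes, the sterol enzymes took 1348 to 1422 CPM in HUWE1-P, 1414 to 1464 CPM in HUWE1-WT and 1011 to 1076 CPM in HUWE1-CS libraries. The fatty acid enzymes took 4727 to 4927, 4438 to 5038 and 3230 to 3288 CPM, most of it from FASN and SCD. By branch, the share of genes called lower was 11 of 19 sterol enzymes, 7 of 11 fatty acid enzymes and 4 of 6 regulators against HUWE1-P cells, and 13, 6 and 3 of these against HUWE1-WT cells. These counts moved with single libraries and with the method. Over all genes, 974 were called lower against HUWE1-P and 917 against HUWE1-WT cells. Without the first HUWE1-CS library 7 sterol enzymes were called lower against HUWE1-P cells, beside 780 of all genes. Against HUWE1-WT cells 4 fatty acid enzymes were called lower without it, beside 708 of all genes. Without the third HUWE1-CS library 3 fatty acid enzymes were called lower against HUWE1-WT cells, beside 700 of all genes. DESeq2 called 6 sterol enzymes lower against HUWE1-P cells, beside 526 of all genes.

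**Figure D4:**
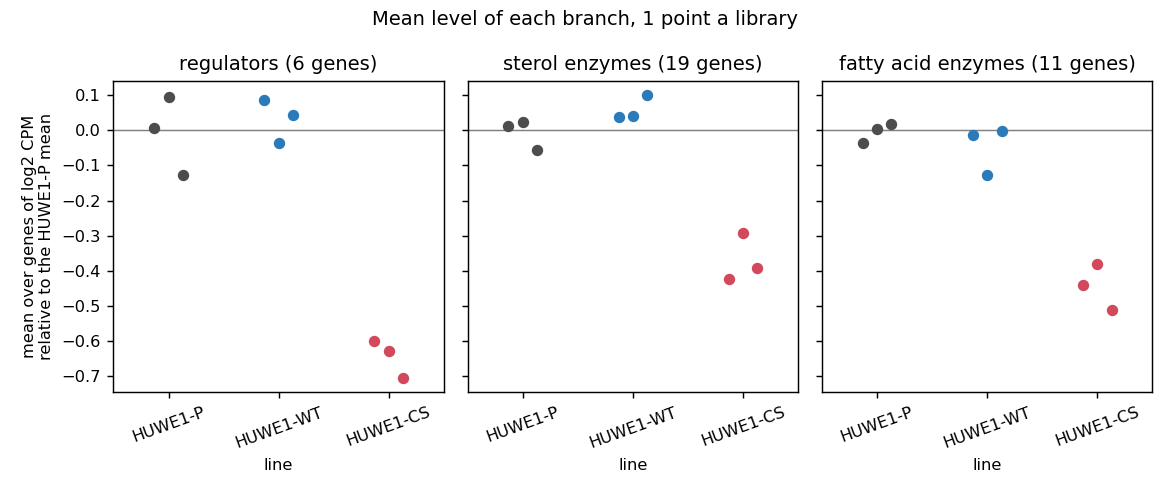
Mean over the genes of each role of log2 CPM relative to the HUWE1-P mean, with 1 point a library and 3 libraries a line. HUWE1-CS libraries lie between -0.71 and -0.60 for regulators, -0.42 and -0.29 for sterol enzymes and -0.51 and -0.38 for fatty acid enzymes, apart from all controls.

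Per kilobase of the canonical transcript, the highest levels in HUWE1-P cells were those of SCD (272 CPM per kb), FASN (237 CPM per kb) and ACLY (124 CPM per kb), and the lowest were those of INSIG2 (4.71 CPM per kb), STARD4 (5.27 CPM per kb) and LPIN1 (5.46 CPM per kb). In HUWE1-CS cells FASN (167.5 CPM per kb) exceeded SCD (138 CPM per kb) on this scale. TM7SF2 moved from 10.3 to 48.1 CPM per kb, close to SREBF1 (48.7) and EBP (49.5) in HUWE1-CS cells.

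Lists of neighbouring pathways are set beside the 17.0% and 15.5% of all genes called in either direction against HUWE1-P and HUWE1-WT cells. Of 20 tested genes of SREBP processing and INSIG turnover, 5 were lower and 1 higher against HUWE1-P cells, and 4 and 1 against HUWE1-WT cells, or 30% and 25% in all, with medians of -0.03 and -0.07. SAR1B, a GTPase of the vesicle coat that carries SCAP to the Golgi, fell by 0.57 and 0.54 on the log2 scale. SEC23A, another part of that coat, rose by 0.33 in each comparison. FBXW7, the ubiquitin ligase adaptor that marks nuclear SREBF proteins for breakdown, fell by 0.81 and 0.84.

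For sterol efflux, uptake and esterification, 2 of 15 genes were lower and 1 higher against HUWE1-P cells, and 3 lower against HUWE1-WT cells, or 20% in each, near the share of all genes. SOAT1, which esterifies cholesterol, fell by 0.67 and 0.55, and SCARB1, a lipoprotein receptor, by 0.47 and 0.43. Among 15 genes that use isoprenoids, COQ2 of ubiquinone synthesis was the only call (6.67%), and it fell by 0.94 and 1.13. Of 17 further genes of fatty acid activation, elongation and desaturation, 2 were lower in both comparisons (11.8%), namely ACSL4, an activating enzyme of polyunsaturated fatty acids (-0.45 and -0.42), and HACD3, a dehydratase of elongation (-0.33 and -0.43).

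Of 26 genes of glycerolipid and phospholipid synthesis, 2 were lower and 1 higher in both comparisons, 11.5% in each, below the share of all genes. GPAT3, an acyltransferase of triglyceride synthesis, fell by 1.14 and 1.31, PCYT2 of phosphatidylethanolamine synthesis fell by 0.54 and 0.49, and DGAT1, the last enzyme of triglyceride synthesis, rose by 0.35 and 0.41. The 9 genes of acetyl-CoA and NADPH supply were split, with 3 lower and 2 higher against HUWE1-P and 3 lower and 1 higher against HUWE1-WT cells. At 55.6% and 44.4% this list had a share of calls above that of all genes. There CS, the citrate synthase, fell by 0.63 and 0.58, the malic enzyme ME1 by 0.49 in each, and MTHFD1 of folate metabolism by 0.33 and 0.30. Of 19 genes of fatty acid oxidation, edgeR called 0 lower and 2 higher against HUWE1-P cells, where 6 had an unadjusted p under 0.05, and 0 in either direction against HUWE1-WT cells, where 5 did. The medians of that list were 0.18 and 0.12.

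Promoter windows, 250 bases before to 50 bases after a RefSeq start site, were at hand for 32 of the 36 genes. FDFT1, ACAT2, FASN and SQLE had none. At least 1 CCAAT box on either strand was found in 24 of these 32 genes, or 75.0%, where 43.6% of 9041 genes of the counts table held one. By branch the share was 14 of 16 sterol enzymes, 7 of 10 fatty acid enzymes and 3 of 6 regulators. A gene counted when any of its windows held a box. The 32 genes had 47 windows, and all 27305 genes with a window had 35116. For IDI1, ACACA, GGPS1 and FADS2 the box lay only in a window after the first. The part of the number of windows in these shares was not tested. The promoter of TM7SF2, the gene that rose, also held a CCAAT box, 74 bases before its start. So did those of FDPS, GGPS1, NSDHL, SC5D, SREBF2, ACSS2 and FADS2, which were called in neither HUWE1-CS comparison. No CCAAT box was found for CYP51A1, INSIG2, LPIN1 and SREBF1, each called lower against HUWE1-P cells. Nor was one found for PMVK, SCAP, ELOVL6 and FADS1, which were not called. GC boxes were found in 30 of 32 genes, beside 79.8% of all. The E-box CACGTG was found in 5 of 32, or 15.6%, beside 13.1% of all. The sterol regulatory element written as TCACNCCA was found in 3 of 32 genes, or 9.38%, beside 4.57% of all. Those matches are shown with their flanks, the element in capitals, since they are the only ones of this spelling in the group.
MSMO1, chr4:166248654-166248683 of GRCh37, plus strand: tctcactatccTCACTCCAtccgcggagcc
MVK, chr12:110011393-110011422, plus strand: gttcgcagttcTCACCCCAgggcgggacac
SREBF2, chr22:42228965-42228994, plus strand: atgacgcgccaTCACCCCAcgcaccgcttc
The elements start 156, 195 and 133 bases before the start sites of MSMO1, MVK and SREBF2. MSMO1 was called lower in both HUWE1-CS comparisons, MVK in 1 and SREBF2 in neither. These matches describe letters only, and a window without a match says nothing about a factor's binding.

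**Figure D5:**
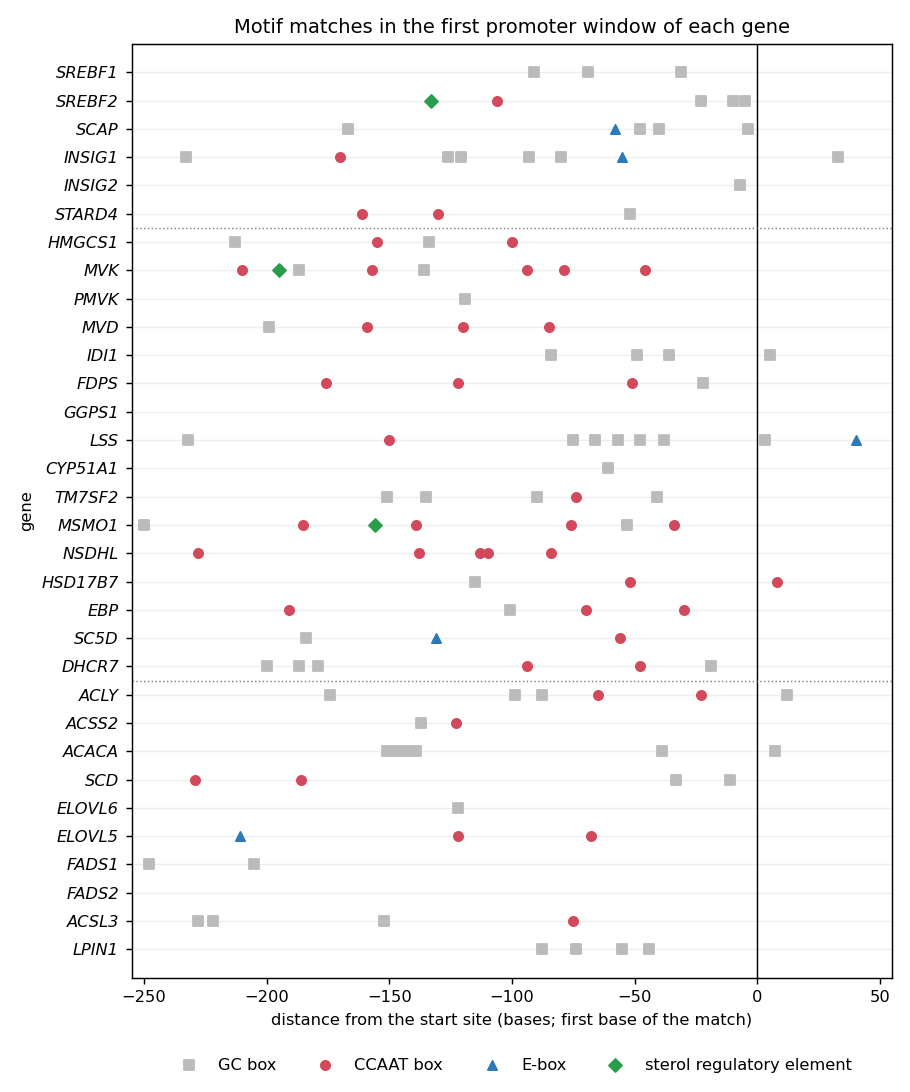
Positions of the 4 motifs in the first promoter window of each of 32 genes (rows, by role), as the distance in bases of the first base of the match from the start site (x axis). CCAAT boxes (red) lie mostly upstream of the start in the sterol rows, and the sterol regulatory elements (green) of SREBF2, MVK and MSMO1 lie between -195 and -133; matches in second windows, such as those of IDI1, are not drawn.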

How the data were processed

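RNA was sequenced from 9 libraries of HCT116 cells. Per the labels and the study's methods, RNA was isolated with TRI Reagent, and libraries were made with a NEBNext Ultra II kit after mRNA isolation. The authors demultiplexed with bcl2fastq 2.20, trimmed adapters with Skewer and mapped reads to hg19 with STAR 2.5.4 (versions from the submitters' processing notes). The authors deposited whole-number counts per gene without normalization, for 11350 genes. The counting tool and its use of strand are not given in the sources used here. The smallest total of a gene was 41 counts. Deposited tables of the authors' comparisons, made with edgeR 3.26.8 and holding log2 fold changes, mean log2 CPM, F, p-values and FDR, were not used. Genes without a symbol (147, with 0.505% of counts) were kept.

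Counts were TMM-normalised and tested with edgeR 4.0.16 in R 4.3.3 (glmQLFit with legacy = TRUE, glmQLFTest, line as the only term, all 9 libraries). Genes were called at a Benjamini-Hochberg adjusted p of at most 0.01 over all 11350 genes. The standard error is the log2 fold change over the square root of F, and intervals are approximate. The biological coefficient of variation was 4.77%. Chi-square per degree of freedom between replicates was 1.16 to 1.65. Each library was counted as its own sample, but these values cannot tell separate cultures from repeats of 1 culture. Deviations of samples of different lines were at most weakly correlated. For pairs carrying the same replicate number r lay between -0.0195 and 0.0579. It lay between -0.0653 and 0.0333 for the other pairs, so a small shared replicate effect is not excluded. The procedure was tested on simulated counts. Intervals cover the spread between libraries as fitted.

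Members and lists were chosen with earlier results of these data known. Values of every library are given for the regulators, for up to 7 genes of each branch called in both HUWE1-CS comparisons by smallest p against HUWE1-P cells, and for genes called against their branch. For MVK and HSD17B7 they were added afterwards. Of other lists, up to 3 genes called in both comparisons are named. Gene positions and canonical transcript lengths (10827 genes, all 36 members) came from GENCODE on GRCh37. Promoter windows came from RefSeq (GRCh38.p14 table) and were placed on GRCh37 by exact match of their 300 bases (46 of 47 windows of the 32 genes matched once). Motifs were searched on both strands, and overlapping matches count separately. Alternatives were DESeq2 1.42.0, limma-voom (limma 3.58.1), other scalings, filters, estimators, thresholds and branch memberships, a replicate block, removal of a transcript length trend, and omission of each library. The sterol branch without TM7SF2 was added after seeing the data.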

Additional observations from a re-analysis of the deposited data

How the results depend on the processing

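The number of members called against HUWE1-P cells was 15 with DESeq2 in place of 23, and 18 to 23 when any 1 library was left out. Over all genes, calls in that comparison were 1088 with DESeq2 in place of 1934, and 1466 to 2018 over the omissions. With DESeq2, ACAT2, MVD, IDI1, FDFT1, SQLE, INSIG2, ACLY and ACSL3 lost the call against HUWE1-P cells (its adjusted p 0.0108 to 0.0542). DESeq2 called 19 members against HUWE1-WT cells, beside 998 of all genes. MVK, IDI1, HSD17B7 and LPIN1 lost the call there (its adjusted p 0.0196 to 0.0428). Against HUWE1-WT cells 18 to 23 members were called over those omissions in place of 23. The calls over all genes were then 1373 to 1766 in place of 1759. Of the 23 members called in each comparison, 14 and 16 stayed called in all 9 omissions, INSIG1, DHCR7, SCD and TM7SF2 among them. No such count over all genes is given here. ACLY against HUWE1-P cells lost its call in 7 omissions (highest adjusted p = 0.0481), and INSIG2 in 4 (0.0906). ACSL3 lost it in 4 (0.0403), and FDFT1 without HUWE1-CS replicate 1 (0.0128), MVD without HUWE1-CS replicate 3 (0.0186), ACAT2 without HUWE1-CS replicate 1 or HUWE1-P replicate 3 (at most 0.0305), IDI1 without HUWE1-CS replicate 1 or 2 (0.014) and SQLE without HUWE1-P replicate 1 or HUWE1-CS replicate 1 (0.0313). Against HUWE1-WT cells, ACLY and IDI1 lost the call in 4 omissions each (0.0228 and 0.0514), LPIN1 and HSD17B7 in 3 each (0.0247 and 0.031), MVK without HUWE1-CS replicate 1 or HUWE1-WT replicate 3 (0.033), and ACSL3 (0.0153) and MVD (0.0103) without HUWE1-CS replicate 3. Between HUWE1-WT and HUWE1-P cells 0 to 1 members were called over the omissions, FASN being the 1, beside 1 to 19 of all genes. Requiring a log2 fold change of at least 0.5 in size left 4 of 7 fatty acid enzymes against HUWE1-P and 3 of 6 against HUWE1-WT cells. It left 8 of 11 and 11 of 13 lower calls among sterol enzymes. Over all genes it left 637 of 974 and 612 of 917 lower calls. The replicate block left 23 members called in both HUWE1-CS comparisons and 0 in HUWE1-WT against HUWE1-P. Over all genes it called 2021, 1835 and 7 in these 3 comparisons. Total counts shifted the median of all genes to -0.031 against HUWE1-P and left the 22 lower calls, beside 1102 of all genes.

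Over the omissions the sterol median ranged from -0.54 to -0.44 against HUWE1-P and from -0.58 to -0.52 against HUWE1-WT cells, and the fatty acid median from -0.40 to -0.23 and from -0.36 to -0.23. Between HUWE1-WT and HUWE1-P cells the sterol median ranged from 0.03 to 0.07, and the fatty acid median, near 0, from -0.064 to 0.02. With regulators added to the branches, the fatty acid median was -0.37 against HUWE1-P cells and -0.028 for HUWE1-WT against HUWE1-P. Against HUWE1-WT cells it was -0.24 with the length trend removed (-0.24 also with the replicate block) and -0.25 without ACSL3 and LPIN1. The cause of these shifts was not tested.

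In the HUWE1-CS comparisons no called member changed sign under any alternative run. Signs turned in 7 uncalled members near 0. With the length trend removed, without and with the replicate block, FDPS was -0.038 and -0.036 and SCAP 0.011 and 0.010 against HUWE1-P cells, and PMVK was -0.12 and -0.12 and FADS1 0.027 and 0.027 against HUWE1-WT cells. GGPS1 was -0.003 against HUWE1-P cells with total counts and -0.001 with the length trend removed and the replicate block. Against HUWE1-WT cells, PMVK was -0.001 with limma-voom and -0.021 with total counts, and SCAP -0.009 with total counts. Over the omissions against HUWE1-P cells, PMVK ranged from -0.28 to 0.021, GGPS1 from -0.071 to 0.11, FADS1 from -0.031 to 0.078 and FADS2 from -0.088 to 0.40. Against HUWE1-WT cells, PMVK ranged from -0.12 to 0.092, GGPS1 from -0.063 to 0.18, ELOVL6 from -0.034 to 0.10, FADS1 from -0.074 to 0.028 and FADS2 from -0.41 to 0.076. At this depth, changes as small as that of ACLY are at the limit of the test, and members under about 20 CPM carry standard errors of 0.16 or more on the log2 scale.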
